A study of Mus musculus with 29 samples.

Results

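Ppargc1a, the gene of the coactivator PGC-1alpha, and 6 genes that work with it or below it in the control of mitochondrial biogenesis were followed in the caudate nucleus of HdhQ150 mice. The 7 genes were Ppargc1a, Ppargc1b, Nrf1, Gabpa, Esrra, Tfam and Tfb2m, out of 19938 genes measured. Each gene was read from the probe set that the array's annotation assigns to its symbol alone, and where a gene had more than 1 such probe set the brightest was used. HdhQ150 mice model Huntington's disease by a knock-in that puts a long CAG repeat into the mouse huntingtin gene, Htt. Wild-type littermates were the controls, and all mice came from the mixed strain that the labels call 129/Ola x C57BL6/J. Each of 29 mice gave total RNA of its caudate nucleus to 1 array. The wild-type groups held 5 mice at 6 months, 5 at 12 months and 4 at 18 months. The HdhQ150 groups held 5, 6 and 4 mice at the same ages. Of the 29 mice 23 were labelled female, including all of those of 18 months. The labels do not say whether HdhQ150 mice carried the expansion on 1 or both copies of Htt, and give no repeat length beyond the name of the line. Mice of different ages were different animals, and their numbers fall in separate ranges by age, so age cannot be told apart from cohort.

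PGC-1alpha does not bind DNA itself. It docks on transcription factors and raises the output of their target genes, and in the striatum, muscle and brown fat it is known for linking energy demand to mitochondrial content. Ppargc1b encodes the related coactivator PGC-1beta. Nrf1 (nuclear respiratory factor 1), Gabpa (the DNA-binding subunit of GABP, also called nuclear respiratory factor 2) and Esrra (the estrogen-related receptor alpha) are the factors on which these coactivators act at nuclear genes of the respiratory chain. Tfam and Tfb2m encode proteins that enter mitochondria and start transcription of the mitochondrial genome. Lower PGC-1alpha messenger RNA in the striatum has been described in Huntington's disease and in some of its mouse models, so the genotype comparison of Ppargc1a is the question these arrays address for this gene set.

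The promoters of 4 members held short matches to the binding motifs of NRF1 or GABP, and they are shown here because the genes of those factors are in the set. The match in the Gabpa window is to the motif of GABP, of which its own product is a subunit. The windows run from 250 bases before to 50 bases after the annotated start, 300 bases in all, from RefSeq's annotation of GRCm38.p6. They are written 5' to 3' on the gene's strand, with motif matches in capitals. Tfam lies at chr10:71237995-71238294 on the minus strand, Tfb2m at chr1:179546227-179546526 on the minus strand, Esrra at chr19:6921759-6922058 on the minus strand and Gabpa at chr16:84834874-84835173 on the plus strand.
Tfam: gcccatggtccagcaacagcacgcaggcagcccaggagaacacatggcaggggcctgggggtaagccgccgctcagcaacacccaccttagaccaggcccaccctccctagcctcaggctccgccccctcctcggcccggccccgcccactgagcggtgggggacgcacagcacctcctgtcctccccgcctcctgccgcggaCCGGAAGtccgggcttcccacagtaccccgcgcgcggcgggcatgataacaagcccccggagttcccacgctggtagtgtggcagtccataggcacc
Tfb2m: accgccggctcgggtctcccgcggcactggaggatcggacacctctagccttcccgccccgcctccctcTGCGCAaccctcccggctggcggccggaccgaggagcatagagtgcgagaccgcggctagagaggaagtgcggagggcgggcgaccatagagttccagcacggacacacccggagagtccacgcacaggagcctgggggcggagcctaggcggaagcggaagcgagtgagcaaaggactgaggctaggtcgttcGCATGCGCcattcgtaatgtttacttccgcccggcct
Esrra: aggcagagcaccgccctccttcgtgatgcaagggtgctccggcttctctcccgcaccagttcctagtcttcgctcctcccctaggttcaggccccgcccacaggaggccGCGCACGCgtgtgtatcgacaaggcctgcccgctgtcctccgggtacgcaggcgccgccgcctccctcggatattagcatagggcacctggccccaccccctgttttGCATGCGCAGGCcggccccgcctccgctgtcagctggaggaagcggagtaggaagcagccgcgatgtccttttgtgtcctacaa
Gabpa: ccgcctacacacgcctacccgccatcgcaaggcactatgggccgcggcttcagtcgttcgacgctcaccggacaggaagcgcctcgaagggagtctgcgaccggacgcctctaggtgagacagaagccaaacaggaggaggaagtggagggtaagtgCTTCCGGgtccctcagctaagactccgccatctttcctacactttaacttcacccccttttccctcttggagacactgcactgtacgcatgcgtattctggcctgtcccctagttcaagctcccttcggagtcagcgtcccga
The Tfam window held the ETS motif CCGGAAG, the kind of site that GABP binds, at position -47 from the start. The Gabpa window held the same motif on the opposite strand at position -93. Tfb2m held the NRF1 core TGCGCA at position -181 and a wider NRF1 motif, GCGCANGC, on the opposite strand 13 bases after the start. Esrra held TGCGCA at position -31, and 3 matches to GCGCANGC, at -141, -34 and -30. The last pair of these overlaps the TGCGCA match, so they are not separate sites. Over all 32851 windows of this length, on either strand, TGCGCA occurred in 7.76%, GCGCANGC in 9.95% and CCGGAAG in 8.86%. The cAMP response motif TGACGTCA (1.79% of all windows) and the estrogen-related receptor motif AAGGTCA (4.72%) were not in any window of the 6 members with a RefSeq window. None of the 5 motifs was in the window of Ppargc1a or in the 2 windows of Nrf1, which says only that these letters are not there. The windows of Tfam, Tfb2m, Esrra and Gabpa had GC contents of 70.3%, 67.3%, 66.0% and 59.3%, against a median of 52.7% over all windows and 48.7% for Ppargc1a. Ppargc1b is named only.

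Values are log2 expression levels, so a difference of 1 is a doubling, and array medians lay between 6.91 and 7.05. Precision depends on how many arrays each group has and on the spread of each gene between mice. Levels of striatal projection neuron genes ran from 10.59 to 11.76 for Ppp1r1b, 10.72 to 12.23 for Pde10a and 11.33 to 12.81 for Penk, well above those medians on every array. Across arrays Slc17a7, a gene of cortical excitatory neurons, ran from 6.82 to 11.77 and Ttr, a choroid plexus gene, from 7.36 to 12.86. The array of wild-type mouse WT-454, of 12 months, correlated with those of its group at 0.945 on average, and the other arrays of that group at 0.975 to 0.978. HdhQ150 mouse 1023 at 6 months is labelled female, but its Xist level was 5.95, where labelled males had 5.50 to 6.13 and the remaining labelled females 11.11 to 11.64. Htt itself, the targeted gene, was lower in HdhQ150 at 6 and 12 months by 0.39 and 0.42 (limma adjusted p = 0.00457 and 0.000122), and the difference at 18 months was -0.32 (adjusted p = 0.0523).

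On its brighter probe set, Ppargc1a messenger RNA did not pass the test between HdhQ150 and wild-type mice at any of the 3 ages, and its estimated difference was above 0 at each. At 6 months the 5 wild-type mice had log2 levels of 9.59, 9.52, 9.36, 9.49 and 9.24, and the 5 HdhQ150 mice had 9.70, 9.36, 9.44, 9.57 and 9.46. At 12 months the wild-type mice had 8.95, 8.97, 9.02, 9.12 and 9.08, and the 6 HdhQ150 mice ran from 9.04 to 9.14 with a median of 9.09. At 18 months the wild-type mice had 9.32, 9.37, 9.29 and 9.14, and the HdhQ150 mice had 9.49, 9.30, 9.01 and 9.35. The genotypes overlapped at every age, and the mice of 12 months sat at the bottom of the range in both. The difference of HdhQ150 minus wild type was 0.069 at 6 months (95% interval -0.088 to 0.23, limma adjusted p = 0.746), 0.058 at 12 months (-0.092 to 0.21, adjusted p = 0.957) and 0.0085 at 18 months (-0.17 to 0.18, adjusted p = 1.0). For this probe set, a drop larger than 0.088, 0.092 or 0.17 at the respective ages lies outside these intervals. Smaller drops are not distinguished from no difference. The limits do not cover the dimmer probe set described below, which differed by -0.31, 0.083 and 0.14 (SE 0.18, 0.17 and 0.20). Nor do they cover the mean of both, which differed by -0.12 at 6 months. On the brighter probe set without mice WT-454 and 1023 the differences were 0.083, 0.028 and 0.0085. At 18 months the sign depended on single mice: it was -0.059 without HdhQ150 mouse 383 and 0.10 without HdhQ150 mouse 415.

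The clear difference of Ppargc1a was between ages, which here are also cohorts of different mice. Its level fell between 6 and 12 months in wild-type mice, from 9.44 ± 0.14 (SD, n = 5) to 9.03 ± 0.07 (n = 5). In HdhQ150 mice it fell from 9.51 ± 0.13 (n = 5) to 9.09 ± 0.04 (n = 6). Every 12-month mouse lay below every 6-month mouse of its genotype. The fitted change was a fall by 0.41 in wild type (SE 0.08, 1.33-fold, limma adjusted p = 0.000373) and by 0.42 in HdhQ150 (SE 0.07, 1.34-fold, adjusted p = 0.000146). Both changes passed the threshold under all 41 other settings, with adjusted p from 0.000114 to 0.0196 in wild type and from 3.02e-05 to 0.00713 in HdhQ150. Without mice WT-454 and 1023 the falls were 0.38 (adjusted p = 0.00265) and 0.43 (adjusted p = 0.00017). Of the 7 members Ppargc1a was the 1 that passed in each genotype. Changes between these ages were common: 25.7% of all genes passed between 12 and 6 months in wild type and 23.1% in HdhQ150, and groups did not overlap for 13.3% and 14.0% of genes. The fall did not differ detectably by genotype, with a difference between the changes of -0.011 (95% interval -0.23 to 0.21, adjusted p = 0.993). In tissue RNA of this kind, fewer cells of a type and less RNA per cell cannot be told apart.

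**Figure D1:**
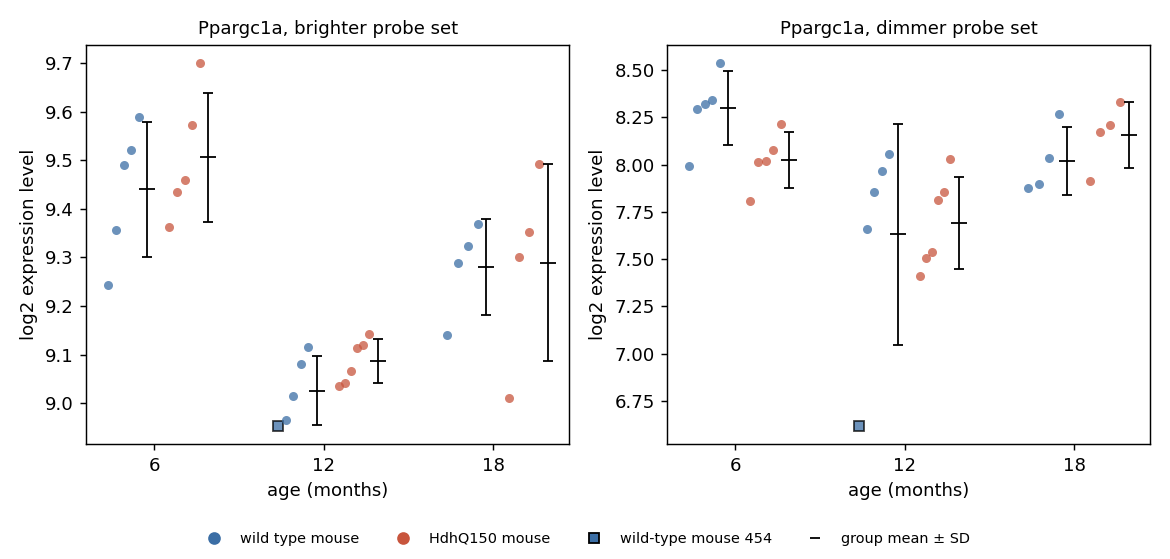
Log2 expression level of Ppargc1a by age (months) on its brighter probe set (left) and its dimmer one (right); each point is a mouse, blue for wild type and red for HdhQ150, the square is wild-type mouse WT-454, and bars give the group mean ± SD. On the brighter probe set the 12-month mice lie between 8.95 and 9.14, below all 6-month mice; on the dimmer one the ages overlap and mouse WT-454 is lowest at 6.62.

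At 18 months Ppargc1a levels lay between those of the other ages, with means of 9.28 ± 0.10 (SD, n = 4) in wild type and 9.29 ± 0.20 (n = 4) in HdhQ150. The wild-type mice of 18 months all lay above those of 12 months, as 6.67% of all genes did not overlap in that comparison. The difference of 0.26 was short of the threshold (limma adjusted p = 0.0581, 5.87% of genes passed). It passed under 7 of 41 other settings, among them the fit without wild-type mouse WT-431 (0.30, adjusted p = 0.0312), without HdhQ150 mouse 383 (adjusted p = 0.0411) or without HdhQ150 mouse 415 (adjusted p = 0.0274). Leaving out either HdhQ150 mouse kept the difference at 0.26 and changed only the shared estimate of the spread. Without wild-type mouse WT-401 it was 0.23, with the highest adjusted p of the settings, 0.21. In HdhQ150 the difference of 0.21 between 18 and 12 months had an adjusted p of 0.141 (5.79% of genes passed). That group's lowest mouse, 415, had 9.01, below every 12-month HdhQ150 mouse, and without it the difference was 0.30 (adjusted p = 0.0144). Against 6 months, the 18-month levels differed by -0.15 in wild type (adjusted p = 0.277, 6.27% of genes passed) and by -0.21 in HdhQ150 (adjusted p = 0.134, 4.65% of genes passed). Over the 41 other settings that HdhQ150 difference ran from -0.28 to -0.057 (adjusted p from 0.0217 to 0.855) and passed in 1. Ordered by mean, the groups were HdhQ150 and wild type at 6 months, then HdhQ150 and wild type at 18 months, then HdhQ150 and wild type at 12 months, and the genotypes did not differ beyond their spread at any age.

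A dimmer probe set of Ppargc1a gave a less even picture. Its wild-type mice had 8.34, 8.54, 7.99, 8.30 and 8.32 at 6 months and 6.62, 8.05, 7.86, 7.96 and 7.66 at 12 months, where the value of 6.62 belongs to mouse WT-454. Its HdhQ150 mice had 8.01, 8.02, 8.08, 7.81 and 8.21 at 6 months, and from 7.41 to 8.03 with a median of 7.68 at 12 months. At 18 months the wild-type mice had 7.90, 8.27, 8.04 and 7.88, and the HdhQ150 mice had 7.92, 8.21, 8.18 and 8.33. The HdhQ150 mean of 8.16 at 18 months lay above that of 8.03 at 6 months, whereas on the brighter probe set it lay below. Between 12 and 6 months the difference was -0.70 in wild type (limma adjusted p = 0.00735 over all probe sets) and -0.31 in HdhQ150 (adjusted p = 0.214). Mouse WT-454 decided both calls. Without it the wild-type difference was -0.37 and no longer passed (adjusted p = 0.0533), and the HdhQ150 difference was -0.35 and passed (adjusted p = 0.0249). In HdhQ150 the difference between 18 and 12 months was 0.41 (adjusted p = 0.305), and 0.50 without that mouse, which passed (adjusted p = 0.0176). For genotype the dimmer probe set differed by -0.31 at 6 months (adjusted p = 0.471), opposite in sign to the brighter one, and by 0.083 and 0.14 at the later ages (adjusted p = 0.999 and 1.0). Without mouse WT-454 the genotype differences were -0.25 at 6 months and -0.23 at 12 months (adjusted p = 0.303 and 0.349), so the sign at 12 months rested on that mouse. Averaging both probe sets turned the 6-month genotype difference to -0.12 (adjusted p = 0.64). Over the 29 arrays the probe sets correlated at 0.53, and within groups at 0.10.

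Among the other 6 members 0 passed the threshold between genotypes at any age. The background was low too: 0.0251% of all genes passed at 6 months, 0.938% at 12 months and 0.135% at 18 months. At an unadjusted p under 0.05, 1 of the 7 members passed at 6 months, 1 at 12 months and 0 at 18 months, against 13.7%, 8.98% and 5.81% of all genes. The groups overlapped for all 7 members at all 3 ages, while 3.18%, 1.59% and 3.7% of all genes had groups that did not. The median difference over the 7 members was 0.019 at 6 months, -0.019 at 12 months and 0.02 at 18 months, beside 0.0062, 0.0059 and -0.0037 over all genes. No member's genotype difference changed with age by the test, in which 0.00502% of all genes passed from 6 to 12 months, 0.0% from 12 to 18 and 0.0% from 6 to 18. By limma with an unadjusted p under 0.05, 1297, 412 and 1629 genes passed in these comparisons, and 0 of the 7 members.

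**Figure D2:**
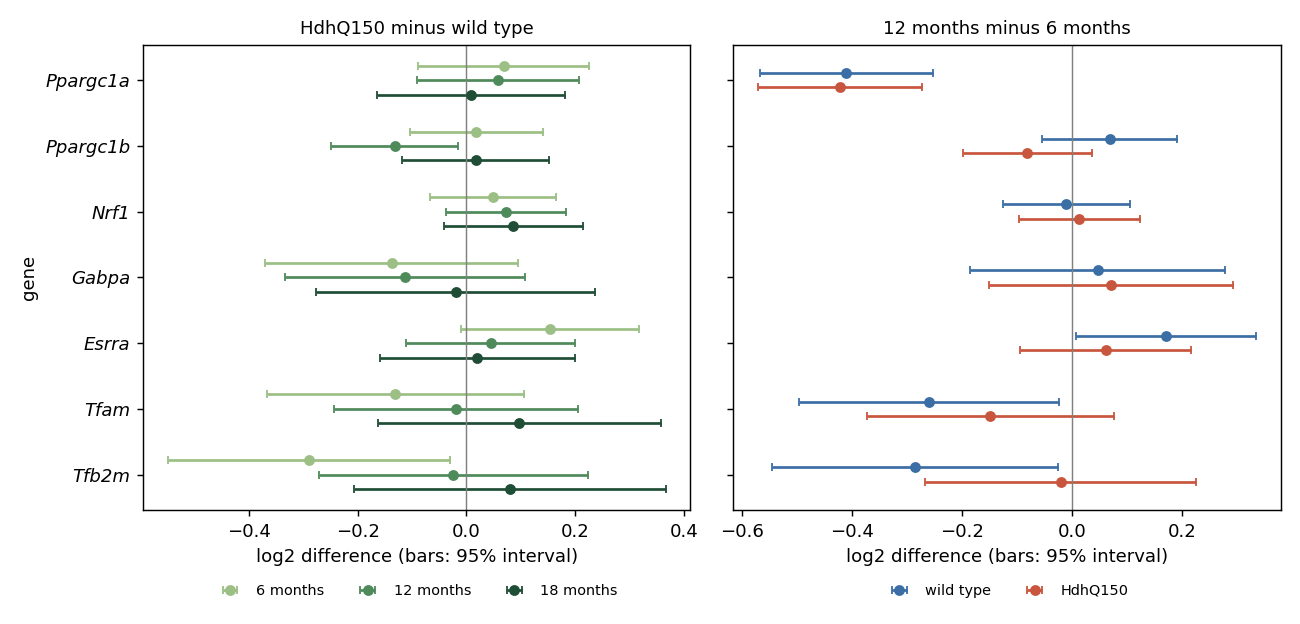
Log2 differences of the 7 genes with 95% intervals, on the left HdhQ150 minus wild type at 6, 12 and 18 months, on the right 12 minus 6 months in wild type (blue) and HdhQ150 (red). Intervals of Ppargc1a lie wholly below 0 on the right, from -0.57 to -0.25 in wild type and from -0.57 to -0.27 in HdhQ150, and include 0 on the left.

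Ppargc1b, the other coactivator of the family, did not follow Ppargc1a with age. At 12 months the wild-type mice had 8.19, 8.03, 8.12, 7.96 and 8.07, and the HdhQ150 mice ran from 7.84 to 8.14 with a median of 7.91. The HdhQ150 median lay below all 5 wild-type mice, but the groups overlapped. The difference was -0.13 (95% interval -0.25 to -0.015, unadjusted p = 0.0289), with a limma adjusted p of 0.449. Without mouse WT-454, which had the highest Ppargc1b level of all 29 mice, it was -0.095 (adjusted p = 0.375). At 6 and 18 months the genotype differences were 0.019 and 0.017. By age Ppargc1b differed by 0.069 in wild type and -0.082 in HdhQ150 between 12 and 6 months (adjusted p = 0.40 and 0.32), and by -0.17 between 18 and 12 months in wild type (adjusted p = 0.131).

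Of the DNA-binding partners of the coactivators, Nrf1 and Gabpa did not pass in any comparison in the fit of all groups. Nrf1 means lay between 7.38 (wild type, 18 months) and 7.51 (HdhQ150, 12 months), with SDs from 0.05 to 0.10. Its genotype differences were 0.049, 0.073 and 0.086 at 6, 12 and 18 months, with limma adjusted p from 0.753 to 0.993, and its 12-month levels differed from those at 6 months by -0.011 and 0.013 in the 2 genotypes. Gabpa means lay between 7.23 and 7.42, with SDs up to 0.30 in the wild-type group of 12 months that holds mouse WT-454. Gabpa differed between genotypes by -0.14, -0.11 and -0.020 at the successive ages (adjusted p from 0.625 to 1.0). Without mouse WT-454 the 12-month difference was -0.27 (adjusted p = 0.136), more than 1.5 times as large. Between 12 and 6 months Gabpa differed by 0.046 in wild type (adjusted p = 0.778), and by 0.21 without that mouse (adjusted p = 0.172). Between 18 and 12 months it differed by -0.19 in wild type (adjusted p = 0.507) and by -0.30 without the mouse (adjusted p = 0.0741), and it passed in a fit of only the groups compared (-0.30, adjusted p = 0.0187) and with array weights (-0.29, adjusted p = 0.0333).

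Esrra had log2 levels of 7.64, 7.61, 7.80, 7.71 and 7.47 in wild-type mice and 7.81, 7.76, 7.71, 7.84 and 7.81 in HdhQ150 mice at 6 months. All but 1 of the HdhQ150 mice lay above all but 1 of the wild-type mice, and the groups overlapped. The difference was 0.15 (95% interval -0.009 to 0.32, limma adjusted p = 0.39). At 12 and 18 months it was 0.044 and 0.02. In wild type Esrra was 0.17 higher on average at 12 than at 6 months (adjusted p = 0.111), and 0.065 higher without mouse WT-454 (adjusted p = 0.609), whose level of 8.14 was the highest of all mice. Without wild-type mouse WT-1011 of 6 months the same comparison gave 0.22 and passed (adjusted p = 0.0374).

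Of the mitochondrial transcription factors, Tfb2m had the largest genotype difference of the 7 members. At 6 months its levels were 7.84, 7.85, 7.76, 7.85 and 8.14 in wild-type mice and 7.61, 7.68, 7.66, 7.46 and 7.80 in HdhQ150 mice. Only 1 HdhQ150 mouse, 1023, reached the wild-type range. The difference was -0.29 (95% interval -0.55 to -0.03, unadjusted p = 0.0303, 1.22-fold), and it did not pass over all genes (limma adjusted p = 0.306, from 0.0637 to 0.614 over 41 other settings). At 12 months the difference was -0.024, and -0.23 without mouse WT-454 (adjusted p = 0.191), whose Tfb2m level of 6.88 lay well below the other mice of its group (7.71 to 7.96). At 18 months it was 0.08 (-0.21 to 0.37). The change of the genotype difference from 6 to 18 months was 0.37 (95% interval -0.018 to 0.76, adjusted p = 0.622). A further probe set of Tfb2m correlated with this one at 0.99 without mouse WT-454 and gave -0.27 at 6 months (adjusted p = 0.356).

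Tfam, which packages mitochondrial DNA besides starting its transcription, had means of 6.61, 6.36 and 6.36 in wild type and 6.49, 6.33 and 6.46 in HdhQ150 at 6, 12 and 18 months. Its genotype differences were -0.13, -0.019 and 0.098 (limma adjusted p = 0.657, 0.998 and 0.993). By age, wild-type Tfam differed by -0.26 between 12 and 6 months and Tfb2m by -0.29, each with an unadjusted p of 0.032 and an adjusted p of 0.094. Without mouse WT-454 these differences were -0.098 and -0.069 (adjusted p = 0.587 and 0.711), and without wild-type mouse WT-1011 they were -0.34 and -0.35 and passed (adjusted p = 0.0308 and 0.0465). Tfb2m also passed without wild-type mouse WT-461 (-0.35, adjusted p = 0.0454). In HdhQ150 mice the same differences were -0.15 and -0.021 (adjusted p = 0.349 and 0.92).

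**Figure D3:**
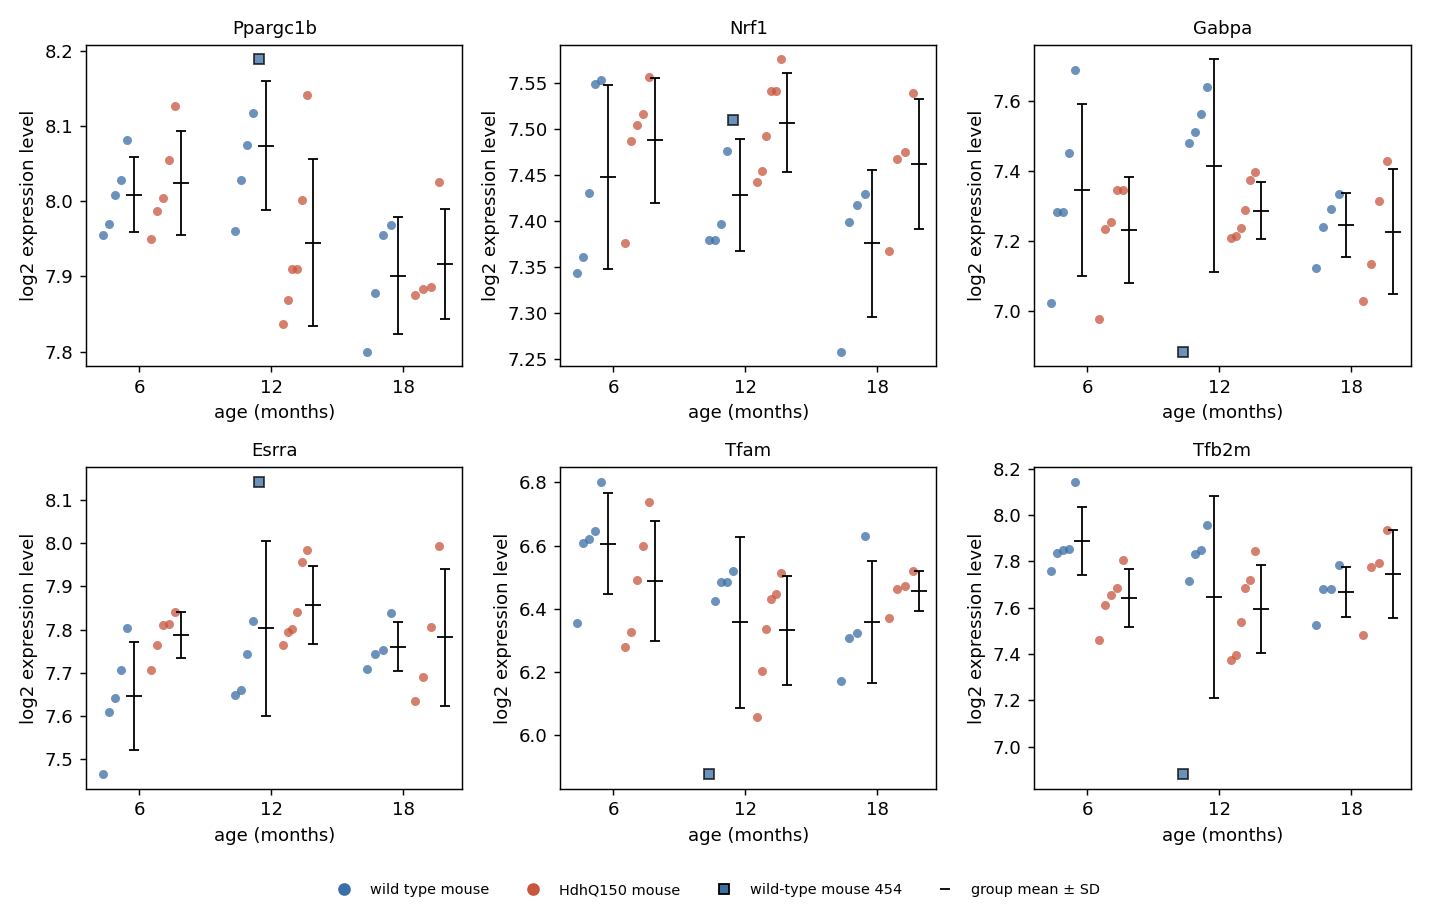
Log2 expression level of the 6 other genes by age (months); each point is a mouse, blue for wild type and red for HdhQ150, the square is wild-type mouse WT-454, and bars give the group mean ± SD. Mouse WT-454 is the lowest mouse for Tfam (5.88), Tfb2m (6.88) and Gabpa (6.88) and the highest for Ppargc1b (8.19) and Esrra (8.14).

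Across mice Tfam, Tfb2m and Gabpa varied together and opposite to Esrra, while Nrf1 and Ppargc1a did not join them. Over the 29 arrays these 3 genes correlated with each other at 0.53 to 0.64, and Esrra correlated with them at -0.56, -0.81 and -0.61. Within groups, after removing group means and sex, Tfb2m correlated with Gabpa at 0.70 and with Esrra at -0.76. Without mouse WT-454 the Tfb2m and Esrra correlation was -0.71 and that of Tfam with Tfb2m was 0.44. Nrf1 correlated with Tfam, Tfb2m and Gabpa at -0.10, -0.17 and -0.09, and Ppargc1a with the other members at -0.27 to 0.39. Without mouse WT-454 the correlation of Ppargc1a with Gabpa was -0.44. Ppargc1b and Esrra correlated at 0.37 over all arrays, 0.20 without mouse WT-454, which was highest for both, and 0.64 within groups. With Tfam, Tfb2m and Gabpa, Ppargc1b correlated at -0.15, -0.31 and -0.00 over all arrays. Those values were 0.10, -0.05 and 0.21 without that mouse and -0.33, -0.48 and -0.22 within groups, so there Ppargc1b leaned to the side of Esrra. These are descriptions over arrays that share their normalization and the 6 groups.

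The genes whose levels were most like those of Ppargc1a over the 29 arrays were Cacng7 (r = 0.912), an auxiliary subunit gene of AMPA receptors, and Cplx1 (0.912), which encodes complexin 1 of the synaptic release machinery. Lrrc55 (0.864), Nefl (0.857), the neurofilament light chain, and Ube2q1 (0.854) followed. Without mouse WT-454 these correlations were 0.843 to 0.908, and within groups they were 0.499 to 0.709, highest for Cplx1. Between 12 and 6 months Cacng7 differed by -0.80 in wild type and -0.91 in HdhQ150, Cplx1 by -0.48 and -0.54 and Nefl by -0.53 and -0.44. The most opposite genes were Msr1 (-0.80), Cyp4a10 (-0.79) and Scgb3a2 (-0.79). For the other members the closest genes were Wipf3 and Zfp598 for Ppargc1b (0.758 and 0.723), Hacd1 and Ptbp1 for Nrf1 (0.649 and 0.606), Nup153 and Mrpl51 for Gabpa (0.863 and 0.836), Zgrf1 and Cdcp1 for Esrra (0.858 and 0.854), Tbc1d12 and Ube3c for Tfam (0.826 and 0.816) and Rbm26 and Tpp2 for Tfb2m (0.955 and 0.951). The arrays share the age groups, so genes with a strong age difference are favoured among those like Ppargc1a.

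Around the members, 8 lists of pathway genes held few genotype differences. Of 21 measured upstream regulators of PGC-1alpha, 2 passed at 12 months, both lower in HdhQ150, when 0.938% of all genes passed. Akt2, a kinase of insulin signalling that phosphorylates PGC-1alpha, differed by -0.26 (limma adjusted p = 0.0161), and Camk4, a calcium-activated kinase that acts on CREB, by -0.38 (adjusted p = 0.0253). Without mouse WT-454, when 2.21% of all genes passed, 5 of the 21 did so, all lower: these 2 with Atf2, Gsk3b and Ppp3ca (-0.25, -0.28 and -0.25, adjusted p = 0.021, 0.0178 and 0.0433). At 6 and 18 months 0 of the 21 passed. By limma 7 and 5 had an unadjusted p under 0.05, beside 13.7% and 5.81% of all genes. The median over the 21 at 12 months was -0.0014, beside 0.0059 over all genes, and without mouse WT-454 it was -0.091, beside 0.027. Leaving out HdhQ150 mouse 462 or wild-type mouse WT-488, WT-508 or WT-527 ended both calls, and leaving out HdhQ150 mouse 464 ended that of Camk4. A fit of only the groups compared ended both as well, and a fit over all probe sets that of Camk4, with adjusted p up to 0.083 for Akt2 and 0.0985 for Camk4 over the 41 settings.

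In the remaining lists, 1 gene passed at 12 months and 1 at 18 months, when 0.938% and 0.135% of all genes passed. Gpx1, the glutathione peroxidase that removes peroxides, was 0.36 higher in HdhQ150 at 12 months (limma adjusted p = 0.0294) among 8 antioxidant and uncoupling genes. Pdk4, a kinase that shuts pyruvate dehydrogenase and is a known target of PGC-1alpha with estrogen-related receptors, was 0.37 higher at 18 months (adjusted p = 0.0265) among 16 genes of the citrate cycle and fatty acid oxidation, while its differences at 6 and 12 months were -0.036 and -0.027. Gpx1 missed the threshold without any of 7 mice (HdhQ150 451, 462 and 464, wild type WT-461, WT-488, WT-508 and WT-527, adjusted p up to 0.0943), and Pdk4 without any of 6 (HdhQ150 383, 412 and 426, wild type WT-400, WT-401 and WT-431, adjusted p up to 0.161). Both also missed it in a fit of only the groups compared and in a fit over all probe sets, Gpx1 with labelled females alone or median centring and Pdk4 without a sex term, with adjusted p up to 0.235 for Pdk4 over the 41 settings.

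Of 28 nuclear-encoded respiratory genes 0 passed between genotypes at any age. By limma 4, 3 and 4 of them had an unadjusted p under 0.05, beside 13.7%, 8.98% and 5.81% of all genes. Their median differences were -0.017, 0.058 and 0.055 at 6, 12 and 18 months, the second of which was 0.025 without mouse WT-454, with Atp5b, an ATP synthase subunit, at 0.20 at 12 months (adjusted p = 0.051) and Ndufs3 of complex I at -0.19 at 6 months (adjusted p = 0.13). The 17 genes of mitochondrial DNA transcription and replication had 0 passing, with Ssbp1, the mitochondrial single-strand binding protein, at -0.32 (adjusted p = 0.167) and Slirp at -0.22 (adjusted p = 0.256) at 6 months. In the 16 genes of mitochondrial dynamics and import 0 passed, and 13 of them lay below 0 at 6 months with a median of -0.16, including Opa1 of inner membrane fusion (-0.31, adjusted p = 0.161) and Hspa9 of protein import (-0.26, adjusted p = 0.139). The median over all genes was 0.0062, and 4 of the 16 had an unadjusted limma p under 0.05 at 6 months. At the later ages most lay above 0, 12 of 16 at 12 months (median 0.049, and -0.027 without mouse WT-454) and 11 of 16 at 18 months (median 0.028). Other lists also leaned below 0 at 6 months, with 14 of 17 mitochondrial DNA genes, 11 of 16 citrate cycle and fatty acid genes and 16 of 28 respiratory genes. Of the 20 relatives and partner factors 7 did so. In the 20 relatives and partner factors of PGC-1 0 passed, and Rxrg, a retinoid receptor, was at -0.40 at 18 months (adjusted p = 0.287), with Rxra at 0.19 at 6 months (adjusted p = 0.173). In 5 neuronal genes known to depend on PGC-1alpha 0 passed, with Inf2 at -0.26 and Syt2 at -0.23 at 12 months (adjusted p = 0.307 and 0.393).

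Between 12 and 6 months more of these genes passed, as many genes did on the whole array, 25.7% in wild type and 23.1% in HdhQ150. The shares were 33.3% in each genotype for upstream regulators and 20.0% and 30.0% for relatives and partner factors. For the 5 neuronal genes the share was 60.0% in each genotype. The 5 neuronal genes known to depend on PGC-1alpha had 2 lower and 1 higher in wild type and 3 lower in HdhQ150, with medians of -0.41 and -0.54 beside 0.035 and 0.036 over all genes. Cplx1 fell by 0.48 and 0.54 in the 2 genotypes (limma adjusted p = 0.000379 and 4.88e-05), and Nefh, the neurofilament heavy chain, by 0.42 and 0.58 (adjusted p = 0.0153 and 0.00077). Pvalb, the calcium-binding protein of fast interneurons, fell by 0.67 in HdhQ150 (adjusted p = 0.027), and Inf2 rose by 0.41 in wild type (adjusted p = 0.00368). Of the 21 upstream regulators, 2 rose and 5 fell in each genotype, and the same 6 genes passed in both, with Camk4 and Ppp3ca higher and Crtc2, Mapk14, Ppp3cb and Prkaa2 lower. Prkaa2, a catalytic subunit of the energy sensor AMPK, fell by 0.58 in wild type and 0.37 in HdhQ150 (adjusted p = 0.000505 and 0.013). Of the 20 relatives and partner factors of PGC-1, 3 rose and 1 fell in wild type and 2 rose and 4 fell in HdhQ150. Foxo1 and Rxrg rose in both genotypes, by 0.45 and 0.35 and by 0.77 and 0.58, and Mef2c, a factor that acts on the Ppargc1a gene in muscle, fell by 0.78 and 0.70 (adjusted p = 0.000769 and 0.00111).

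Mitochondrial genes passed in both directions between these ages, at shares that differed by list. In wild type and HdhQ150 they were 5.88% and 17.6% for mitochondrial DNA transcription and replication. For the citrate cycle and fatty acid oxidation they were 18.8% and 6.25%, and for antioxidant and uncoupling genes 12.5% and 37.5%. Of the 28 respiratory genes 1 rose and 7 fell in wild type, and 4 rose and 4 fell in HdhQ150. That is 28.6% in each, beside 25.7% and 23.1% of all genes. Without mouse WT-454, 2 of them rose and 6 fell in wild type, when 16.6% of all genes passed. Cox4i1 rose by 0.44 and 0.47 (limma adjusted p = 4.7e-05 and 1e-05), and Uqcrc1, Surf1 and Ndufv1 fell in both genotypes, Uqcrc1 by 0.34 and 0.49 (adjusted p = 0.00163 and 2.3e-05). Of the 16 genes of dynamics and import 6 fell in wild type (37.5%) and 2 rose in HdhQ150 (12.5%). The wild-type count rested on mouse WT-454: without it, when 16.6% of all genes passed, 0 fell and 2 rose, Tomm20 and Tomm70a (0.21 and 0.35, adjusted p = 0.0432 and 0.0217). The neuronal list kept its counts of 1 higher and 2 lower in wild type without that mouse.

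Markers of several other cell types also differed between ages. The marker counts below stand beside 25.7% of all genes that passed between 12 and 6 months in wild type and 23.1% in HdhQ150. The mean level of 6 measured markers of cortical excitatory neurons was 8.72 ± 0.29 (SD, n = 5), 7.98 ± 0.45 (n = 5) and 8.87 ± 0.37 (n = 4) in wild type at 6, 12 and 18 months, and 8.69 ± 0.31 (n = 5), 7.60 ± 0.53 (n = 6) and 8.80 ± 0.33 (n = 4) in HdhQ150. It ranged from 7.48 to 8.56 in wild type and 6.98 to 8.34 in HdhQ150 at 12 months, and 4 of the 6 markers fell in each genotype between 6 and 12 months, Slc17a7, Tbr1, Neurod2 and Neurod6. The 6 astrocyte markers had means of 9.48, 9.19 and 9.44 in wild type and 9.41, 9.14 and 9.45 in HdhQ150, with 3 and 4 of 6 lower at 12 months. Markers of striatal projection neurons (10 measured) had means of 10.47, 10.87 and 10.32 in wild type and 10.31, 10.63 and 9.96 in HdhQ150, with 7 and 6 of 10 higher at 12 than at 6 months. Between genotypes 2 of these 10, Pde10a and Penk, were lower in HdhQ150 at 12 and at 18 months, when 0.938% and 0.135% of all genes passed. At 6, 12 and 18 months 8, 9 and 10 of the 10 lay below 0, with medians of -0.19, -0.28 and -0.37. The medians over all genes were 0.0062, 0.0059 and -0.0037. By limma 5, 7 and 6 of the 10 had an unadjusted p under 0.05, beside 13.7%, 8.98% and 5.81% of all genes. At 12 and 18 months Ppargc1a had differences of 0.058 and 0.0085. Thalamic neuron markers had means of 7.78, 7.18 and 7.49 in wild type and 7.62, 7.18 and 7.63 in HdhQ150, with 2 and 1 of 5 lower at 12 than at 6 months. Oligodendrocyte markers (5 measured) had means of 10.14, 10.29 and 10.29 in wild type and 10.11, 10.40 and 10.48 in HdhQ150, with 2 and 4 of 5 higher at 12 months. Of 6 striatal interneuron markers 1 was higher in wild type and 3 lower in HdhQ150, with means of 8.72 and 8.70 at 6 and 12 months in wild type and 8.85 and 8.59 in HdhQ150. Of 6 microglial markers 0 passed in wild type and 2 were lower in HdhQ150, and of 5 vessel markers 1 was lower in each genotype. Of 7 choroid plexus markers 0 passed. By limma 2 and 0 of these 7 had an unadjusted p under 0.05, beside 39.0% and 35.4% of all genes. Over the 29 arrays Ppargc1a correlated with the marker means at 0.51 for cortical neurons, 0.71 for astrocytes and -0.51 for striatal projection neurons, and within groups at -0.15, 0.25 and -0.05. With thalamic, interneuron and oligodendrocyte means it correlated at 0.48, 0.42 and -0.45, and within groups at 0.00, 0.14 and 0.00. With the cortical marker mean as a covariate, added after the data were seen, the fall of Ppargc1a from 6 to 12 months was 0.45 in wild type and 0.47 in HdhQ150 (limma adjusted p = 0.00202 and 0.00713). That covariate's slope came from differences between mice within groups, where the correlation was -0.15. The fit therefore adjusted for the marker change between ages only as far as this within-group slope carries it. The part of any cell type in the fall was not tested.

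**Figure D4:**
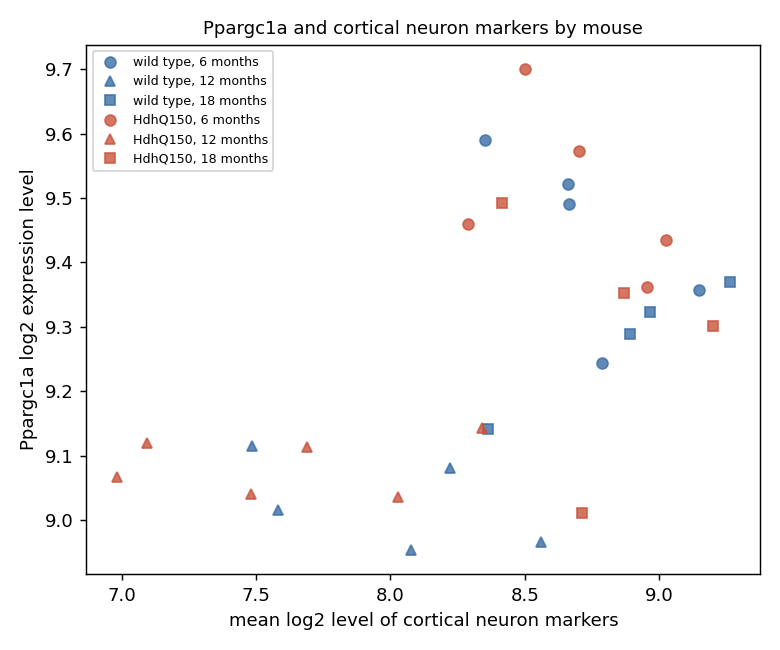
Ppargc1a log2 level against the mean log2 level of 6 cortical excitatory neuron markers, a point per mouse, coloured by genotype and shaped by age. The 12-month mice (triangles) lie at Ppargc1a levels of 8.95 to 9.14 and at marker means of 6.98 to 8.56. Their groups also had the lowest average marker means of each genotype, 7.98 in wild type and 7.60 in HdhQ150.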

How the data were processed

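Total RNA from the caudate nucleus of 29 mice was taken up with TRIzol-chloroform and biotin-labelled (labels' protocols). The submitters' processing notes name RMA in Affymetrix Expression Console, and the deposited table holds log2 levels, 1 per probe set and array. RMA subtracts background, equalizes the distributions of all arrays and summarizes probes, so differences are relative to the other genes of an array. No source used here gives a software version or genome build.

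Of 35556 probe sets, 21789 had 1 symbol, 1621 had several, and 12146 were unnamed here. Current symbols came from RefSeq (GRCm38.p6) by Entrez number for 21698. The brightest probe set stood for each of 19938 genes. No pair of arrays held identical values. Group means and labelled sex were fitted to all arrays with limma 3.58.1 (R 4.3.3, trended variance), with Benjamini-Hochberg adjustment over all genes in each of 12 comparisons and a threshold of 0.05. The fit was tested on simulated data with 200 changed genes. Mice are replicates by label, each with its own number. Named genes were the 7 members, the 5 most and 3 least similar genes for Ppargc1a (2 most similar for the others), and for each list the genes past the threshold between genotypes, or else the 2 of lowest p. Other list and marker genes named for ages, or without mouse WT-454, were chosen after their values were seen. The members and lists were chosen with earlier results of these data known. Alternatives changed the sex term, variance model, probe set rule, centring, samples and covariates, and left out each mouse in turn.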

Additional observations from a re-analysis of the deposited data

Results flagged for a closer look

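In 42 groups of 4 to 6 mice, 5 had a mouse whose gap to its neighbour took up most of the group's range. Chance alone gives about 1 in 20 groups. Of the 5, 3 were wild-type mouse WT-454 of 12 months, at 5.876 for Tfam (gap of 0.855 of the range), 6.881 for Tfb2m (0.772) and 6.885 for Gabpa (0.785), in each case the lowest of all 29 mice. This mouse also had the lowest correlation with its own group, 0.945. Wild-type mouse WT-1020 of 6 months was highest for Tfb2m at 8.143 (0.75), in the group against which HdhQ150 was compared at that age. HdhQ150 mouse 383 of 18 months was highest for Ppargc1b at 8.026 (0.928), where the other 3 mice had 7.88 to 7.89. No cause was tested.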

How the results depend on the processing

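No paired analysis was possible because the groups share no mouse numbers. Across 41 other settings, 29 of which left out 1 mouse each, the fall of Ppargc1a from 6 to 12 months on its brighter probe set, or the mean of both, kept its direction and its side of the threshold in both genotypes, and 0 members passed between genotypes at any age. The values that changed sign below were not past the threshold with all mice, and the cause was not tested.

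Between genotypes at 6 months, Ppargc1a was -0.118 with the mean of its probe sets and Ppargc1b -0.00428 in labelled females alone. The dimmer Ppargc1a probe set, in a fit without mouse WT-454 added after the data were seen, gave -0.226 at 12 months. At 12 months Tfb2m was 0.000788 in a fit of only the groups compared. At 18 months, with array weights, Ppargc1a was -0.0465, Ppargc1b -0.00329, Esrra -0.0191 and Gabpa 0.0252. Between 12 and 6 months, Nrf1 in wild type was 0.00461 with median centring and 0.0287 with the cortical covariate. In HdhQ150 it was -0.000583 with array weights and -0.0107 leaving out mice WT-454 and 1023. Between 18 and 12 months in wild type, 2 members passed in a fit of only the groups compared, 1 with array weights and 1 in the upper part of genes by mean level, which leaves out Tfam. There Tfam was 0.000826 without a sex term, 0.00218 with mouse 1023 entered as male and 0.0148 with the cortical covariate, and Tfb2m was 0.0204 without a sex term and 0.00431 with the covariate. Esrra was 0.043 in labelled females alone, in a fit of only those groups and without mice WT-454 and 1023, and 0.0513 with array weights. Between 18 and 6 months, 1 member, Tfam, passed with array weights in wild type and 1, Ppargc1a, in HdhQ150. In HdhQ150, Tfam was 0.00451 with array weights and 0.0565 leaving out mice WT-454 and 1023, and Gabpa was 0.0178 and 0.0299. Esrra there was -0.00489 without a sex term, -0.0104 in labelled females alone and in a fit of only those groups, -0.0331 with array weights and -0.00259 leaving out mice WT-454 and 1023.

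With each mouse left out in turn, genotype differences at 6 months ran from -0.00672 to 0.041 for Ppargc1b. At 12 months they ran from -0.172 to 0.0453 for Tfam and from -0.23 to 0.0415 for Tfb2m. At 18 months they ran from -0.0591 to 0.101 for Ppargc1a, -0.0193 to 0.0397 for Ppargc1b, -0.0503 to 0.069 for Esrra and -0.0865 to 0.0459 for Gabpa. Between 12 and 6 months in wild type, 1 to 4 members passed, with Nrf1 from -0.0355 to 0.0235 and Gabpa from -0.0595 to 0.208. In HdhQ150, Nrf1 ran from -0.012 to 0.0322 and Tfb2m from -0.0767 to 0.055. Between 18 and 12 months in wild type, 0 to 1 members passed, with Tfam from -0.119 to 0.0521, Tfb2m from -0.171 to 0.0472 and Esrra from -0.0652 to 0.043. In HdhQ150, 0 to 1 passed, with Ppargc1b from -0.0589 to 0.0254 and Nrf1 from -0.0566 to 0.000562. Between 18 and 6 months in HdhQ150, Nrf1 ran from -0.0451 to 0.0139, Tfam from -0.0999 to 0.0223, Tfb2m from -0.00397 to 0.147, Esrra from -0.0619 to 0.0574 and Gabpa from -0.101 to 0.0378.

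Over the same settings the number of all genes past the threshold ran from 2 to 1330 around 5 for genotype at 6 months, from 103 to 656 around 187 at 12 months and from 1 to 43 around 27 at 18 months. It ran from 2434 to 7434 around 5121 between 12 and 6 months in wild type and from 777 to 7098 around 4599 in HdhQ150. Groups of 4 to 6 arrays limit the precision, and differences inside the intervals given are not distinguished from none.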
